A study of Rattus norvegicus with 6 samples.

Results

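A set of 10 genes that mark endothelial cells was followed in rat renal cortex: Pecam1, Cdh5, Kdr, Flt1, Tie1 and Tek, which most endothelial cells express, and Emcn, Ehd3, Plvap and Vwf, whose level differs between the vessel beds of the kidney. They were chosen by name, with earlier results of these data known. A non-control probe was taken as theirs where its transcript accession belonged to the gene. A probe was matched for 9 of the 10, out of 15645 named genes on the array, and these 9 were read by 16 probes. Vwf, von Willebrand factor, was not matched and was not analysed here.

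The tissue came from 6 male Sprague-Dawley (Crl:CD(SD)) rats, 5 weeks old at purchase. The treated group held 3 rats dosed with the chlorinated aromatic sulfone named in the labels as sulfone bis(p-chlorophenyl) at 250 mg/kg/day over 4 weeks, and the vehicle group held 3 rats given corn oil over the same time. All 6 rats ate the same basal diet. Each rat gave 1 sample, hybridised alone to a 1-colour rat array.

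Endothelial cells line every vessel of the cortex, and their beds differ in structure. Glomerular capillaries have open fenestrae and face podocytes, which secrete VEGF-A, while peritubular capillaries have fenestrae closed by diaphragms and run along the tubules. VEGF-A signals through its receptors on endothelial cells and keeps fenestrated capillaries in place, and the angiopoietins signal through the Tie receptors to steady the vessel wall.

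The promoters of the members that the results turn on are shown first, because Ehd3, Flt1 and Plvap were the 3 members whose treated and vehicle values did not overlap, while Kdr, a bright VEGF receptor probe, is the contrast. Each line gives the 250 bases before the annotated start of the gene, 5′ to 3′ on the strand of the gene, from RefSeq (build GRCr8). Capitals mark the letters AGGAAG or CGGAAG on either strand, which are among the strings that ETS factors bind. ETS factors, among them Erg and Fli1, are regulators of many endothelial genes.
Ehd3: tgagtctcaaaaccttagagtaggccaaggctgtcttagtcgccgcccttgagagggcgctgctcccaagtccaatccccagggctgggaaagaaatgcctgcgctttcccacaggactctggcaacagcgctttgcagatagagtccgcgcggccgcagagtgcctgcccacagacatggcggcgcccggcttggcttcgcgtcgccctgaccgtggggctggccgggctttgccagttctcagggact
Flt1: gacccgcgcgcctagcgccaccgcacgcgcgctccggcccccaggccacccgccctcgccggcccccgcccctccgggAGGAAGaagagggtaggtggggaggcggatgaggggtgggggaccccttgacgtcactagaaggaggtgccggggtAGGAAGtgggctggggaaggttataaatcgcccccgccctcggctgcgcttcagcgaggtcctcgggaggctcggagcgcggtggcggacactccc
Plvap: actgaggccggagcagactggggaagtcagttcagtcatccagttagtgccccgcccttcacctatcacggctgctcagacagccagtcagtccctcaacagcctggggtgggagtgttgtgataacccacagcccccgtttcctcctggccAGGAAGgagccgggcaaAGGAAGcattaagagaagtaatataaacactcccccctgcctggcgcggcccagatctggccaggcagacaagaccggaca
Kdr: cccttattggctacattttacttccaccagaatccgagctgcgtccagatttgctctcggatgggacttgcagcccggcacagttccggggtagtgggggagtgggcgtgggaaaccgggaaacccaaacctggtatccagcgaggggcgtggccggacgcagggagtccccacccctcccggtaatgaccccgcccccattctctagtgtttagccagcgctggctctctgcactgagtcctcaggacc
These windows lie at chr6:27417446-27417695 on the minus strand for Ehd3, chr12:12333180-12333429 on the plus strand for Flt1, chr16:18231280-18231529 on the minus strand for Plvap and chr14:32571813-32572062 on the plus strand for Kdr. The marked letters began at -172 and -96 from the Flt1 start and at -98 and -81 from the Plvap start, counted in bases. The Ehd3 and Kdr windows held neither string, though both hold the shorter letters GGAA. A promoter sequence was at hand for 6 members, and 4 of these 6 windows (Flt1, Plvap, Emcn and Tie1) held the marked letters. Among all 33469 promoter windows of the same length, 39.4% held them. The letters AGATAA on either strand, a form of the GATA site, were in 0 of the 6 windows and in 10.3% of all windows. Other forms of the ETS and GATA sites were not searched, so a window without a match can still hold one. The Plvap window, for example, holds the related letters TGATAA. A match describes the letters and is no evidence of binding.

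Values below are log2 of the processed spot signal minus the array's 75th percentile, so 0 is the 75th percentile of that array and a step of 1 is a doubling of signal. They compare arrays within a probe and not one probe with another. The share of probes detected (well above background) was 66.1% to 68.2% per array, the 75th percentile was a signal of 910.3 to 1101, and arrays correlated pairwise at 0.982 to 0.994 over tested probes. Treated 2 and treated 3 were hybridised and scanned on slide 2, while treated 1 and all vehicle samples were on slide 1. The difference between treated 1 and the vehicle mean is therefore given as the value within slide 1, which is also the estimate with slide as a fixed block and rests on 1 treated sample. Of 42 named genes with an unadjusted limma p under 0.05, 16 kept it with slide as a fixed block and 25 with slide as a random block. In whole cortex, fewer endothelial cells and less RNA per endothelial cell cannot be told apart.

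All 16 endothelial probes were well above background on all 6 arrays, so these markers were present in the tissue of both groups. After limma with Benjamini-Hochberg adjustment over 40643 probes, 3 probes of the whole array passed at 0.05 (0.00738% of those tested), 1 higher and 2 lower in treated cortex, and none of them was an endothelial member. The lowest adjusted p of a member was 0.0957, for Ehd3. At an unadjusted p under 0.05, Ehd3, Flt1 and Plvap were higher in treated cortex and 0 of the 9 genes were lower, where 10.1% of all 12118 tested genes were higher and 11.3% were lower. With slide as a fixed block Ehd3 kept that unadjusted call while Flt1 and Plvap lost it, and with slide as a random block Ehd3 and Flt1 kept it while Plvap lost it. The same 3 genes had treated values above every vehicle value, against 13.9% of all tested genes, and 0 members had treated values below every vehicle value, against 16.8% of all tested genes. The median log2 fold change of the 9 genes was 0.05, and that of all tested genes was -0.01. Estimates closer to 0 than 0.1 on the log2 scale were found for 5 of the 9, namely Pecam1, Cdh5, Kdr, Tie1 and Emcn. Counts of higher and lower genes in the lists below use the same unadjusted threshold and stand against the same shares of 10.1% and 11.3%. Members and lists were chosen with earlier results of these data known, so no count is a test against the shares of all genes.

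**Figure D1:**
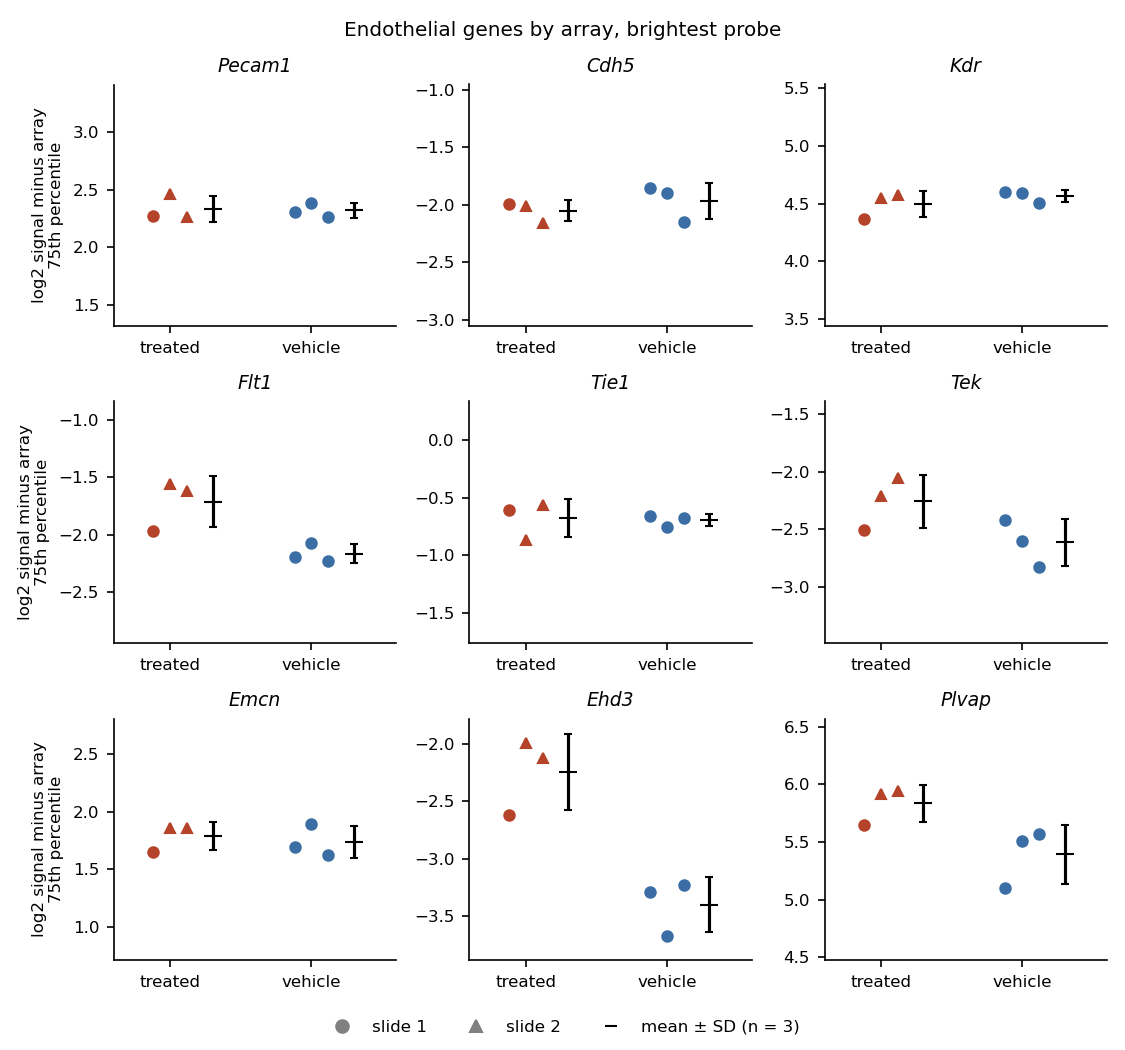
Signal of the brightest probe of each endothelial gene on each array, as log2 signal minus the array's 75th percentile on the vertical axis, with treated samples left of vehicle samples. Circles are slide 1, triangles are slide 2, and bars are the mean ± SD of 3 samples; every panel spans about the same height on the log2 scale, and treated and vehicle points stand apart for Ehd3, Flt1 and Plvap.

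Pecam1 encodes PECAM-1, an adhesion molecule at the contacts between endothelial cells that leukocytes and platelets also carry. Its brighter probe read 2.28, 2.46 and 2.27 in the treated samples, against 2.31, 2.39 and 2.27 in the vehicle samples. The groups lay on top of each other. Limma put the log2 fold change at 0.01 (SE 0.09, 95% interval -0.20 to 0.23, limma adjusted p = 0.936). The dimmer probe gave 0.03, with treated values of -3.28, -2.94 and -2.90 against vehicle values of -3.16, -2.94 and -3.11, and these overlapped too.

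Cdh5 encodes VE-cadherin, which holds endothelial cells together at adherens junctions. Its brighter probe read -1.99, -2.01 and -2.16 in treated cortex, against -1.85, -1.90 and -2.15 in vehicle cortex. Treated 3 and vehicle 3 were the low samples, at nearly one level. The log2 fold change was -0.09 (SE 0.11, 95% interval -0.35 to 0.17, limma adjusted p = 0.665), and the dimmer probe gave -0.06, again with overlap.

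Kdr encodes VEGFR2, the receptor that carries most VEGF-A signalling in endothelial cells. Its single probe read 4.37, 4.55 and 4.57 in treated samples and 4.60, 4.59 and 4.50 in vehicle samples. Treated 1 was the low sample, and the other treated values fell among those of the vehicle. Kdr had a log2 fold change of -0.07 (95% interval -0.28 to 0.14, SE 0.09, limma adjusted p = 0.674), and it was -0.20 within slide 1.

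Flt1 encodes VEGFR1, which binds VEGF-A tightly, also binds placental growth factor and VEGF-B, and can be made as a soluble form that holds VEGF away from VEGFR2. The brightest Flt1 probe read -1.97, -1.56 and -1.62 in treated cortex, against -2.19, -2.07 and -2.23 in vehicle cortex. No treated value reached down to the vehicle values, by a gap of 0.10, with treated 1 the nearest. The log2 fold change was 0.45 (SE 0.13, 95% interval 0.14 to 0.76, 1.37-fold, limma adjusted p = 0.162), and it was 0.20 within slide 1. Over all arrays with normexp background correction it was 0.35. The other Flt1 probes gave 0.30 (limma adjusted p = 0.448) and 0.17 (limma adjusted p = 0.509), and on both of them the groups overlapped. On those probes treated 1 was below the vehicle mean, with differences of -0.12 and -0.09. Without treated 1, all treated arrays lie on slide 2, and the brightest probe then gave 0.58 (limma adjusted p = 0.0245). All 3 probes name the same transcript, so which Flt1 forms they read was not resolved.

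The ligands and co-receptors of the VEGF system are the natural companions of these receptors. Of 10 listed genes 9 were tested, with 2 higher at an unadjusted p under 0.05 (Flt1 and Vegfa), 1 lower (Nrp1) and a median of -0.07. Vegfa, the main ligand, read 4.36, 4.58 and 4.83 in treated samples against 4.33, 4.24 and 4.21 in vehicle samples. Treated 1 was close to vehicle 1, and treated 2 and 3, both on slide 2, were the high samples. The log2 fold change was 0.33 (SE 0.13, limma adjusted p = 0.234) and 0.10 within slide 1, where the unadjusted call was lost, and the 5 other Vegfa probes gave 0.27 to 0.37. On each of those 5 probes treated 1 lay below the highest vehicle value, and none reached an unadjusted p of 0.05. Nrp1, a co-receptor for VEGF and for semaphorins, read -0.16, 0.10 and -0.15 in treated cortex against 0.29, 0.10 and 0.16 in vehicle cortex, a log2 fold change of -0.26 (limma adjusted p = 0.239) and -0.35 within slide 1, with treated 2 at the level of vehicle 2. The remaining ligands and the lymphatic receptor did not reach an unadjusted p of 0.05: Vegfb had a log2 fold change of -0.08, Vegfc -0.08, Vegfd 0.34, Pgf -0.01 and Flt4 -0.10. Nrp2 was on the array and was not tested because it was too dim.

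**Figure D2:**
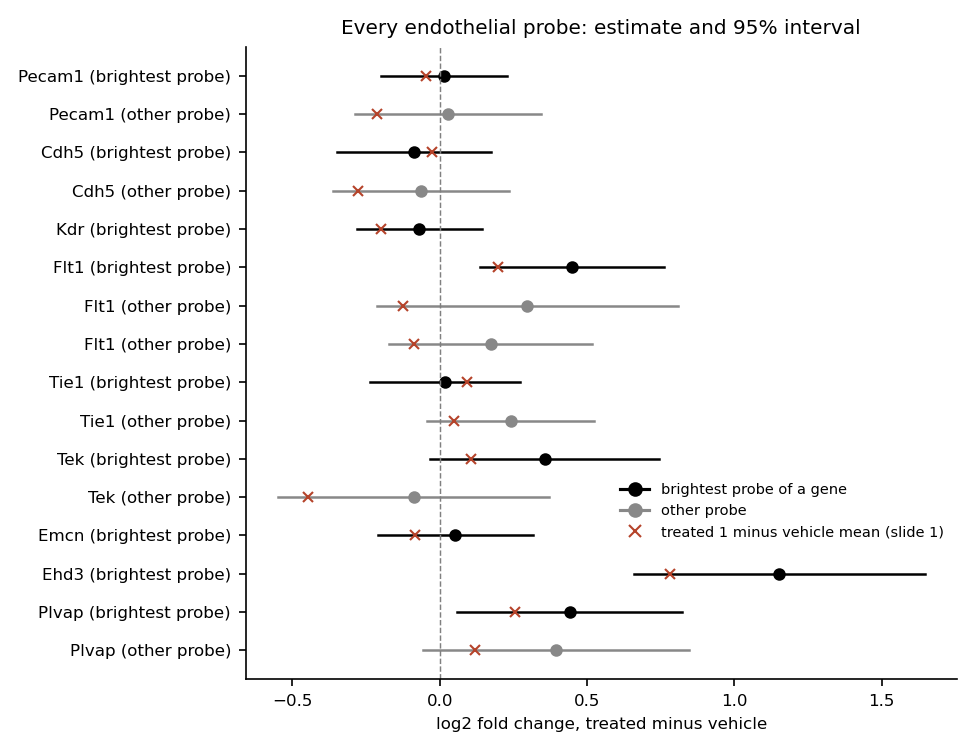
Log2 fold change, treated minus vehicle, of all 16 endothelial probes on the horizontal axis, with lines for the 95% interval of the limma estimate from 3 samples a group. Black points are the brightest probe of a gene, grey points the other probes, and crosses are treated 1 minus the vehicle mean, the value within slide 1; only the lines of Flt1 (brightest probe), Ehd3 and Plvap (brightest probe) lie wholly above 0.

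Tie1 encodes a receptor that works mainly by pairing with Tek, and Tek encodes TIE2, the receptor of the angiopoietins. The brighter Tie1 probe read -0.60, -0.87 and -0.56 in treated samples, against -0.66, -0.76 and -0.68 in vehicle samples. Treated 2 lay below and treated 1 and 3 above all vehicle values, so the spread of the treated samples enclosed the vehicle. For Tie1 this made a log2 fold change of 0.02 (95% interval -0.24 to 0.27, SE 0.10, limma adjusted p = 0.932). The dimmer probe gave 0.24 (SE 0.12, limma adjusted p = 0.293), with treated values of -2.29, -2.10 and -1.90 against vehicle values of -2.35, -2.40 and -2.27.

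The brighter Tek probe read -2.51, -2.21 and -2.05 in treated cortex, against -2.42, -2.60 and -2.83 in vehicle cortex. Treated 2 and 3 were above every vehicle sample and treated 1 was not. On this probe the log2 fold change was 0.36 (SE 0.16, 95% interval -0.03 to 0.75, limma adjusted p = 0.268), and it was 0.11 within slide 1. The dimmer Tek probe pointed the other way, at -0.09 (limma adjusted p = 0.811), with treated values of -4.20, -3.83 and -3.50 against vehicle values of -3.60, -3.85 and -3.81. No direction for Tek can be read from probes that differ in sign.

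Among the angiopoietins, Angpt1 stood out. It encodes the agonist of TIE2, made mainly by mural and mesenchymal cells rather than by endothelium. It read -0.86, -1.03 and -1.20 in treated cortex, against -0.35, -0.35 and -0.38 in vehicle cortex. The vehicle samples were nearly one value and every treated sample was well below them. Treated minus vehicle, this was -0.67 on the log2 scale (SE 0.10, 0.627 times the vehicle signal, limma adjusted p = 0.088), and it was -0.50 within slide 1. It missed the adjusted threshold. Angpt2, the context-dependent antagonist stored in endothelial cells, had a log2 fold change of 0.07 (limma adjusted p = 0.781), and Angpt4 had 0.14 (limma adjusted p = 0.863). Of 7 listed angiopoietin and Tie genes 5 were tested, with 0 higher and 1 lower at an unadjusted p under 0.05.

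Emcn encodes endomucin, a surface sialoglycoprotein of capillary and venous endothelium. Its single probe read 1.65, 1.86 and 1.86 in treated samples, against 1.69, 1.90 and 1.63 in vehicle samples. The groups overlapped fully, with an estimate of 0.05 (SE 0.11, 95% interval -0.21 to 0.32, limma adjusted p = 0.801). It was -0.08 within slide 1.

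Ehd3 encodes an EH-domain ATPase of endocytic recycling which in the mouse kidney is concentrated in glomerular endothelium. Its single probe read -2.62, -1.99 and -2.13 in treated cortex, against -3.29, -3.67 and -3.23 in vehicle cortex. Every treated sample was above every vehicle sample, with a gap of 0.61 between the nearest values, treated 1 and vehicle 3. The log2 fold change was 1.15 (SE 0.20, 95% interval 0.66 to 1.65, 2.22-fold, limma adjusted p = 0.0957). Within slide 1 it was 0.78. Over all arrays with normexp background correction, the log2 fold change of Ehd3 was 0.84. Ehd3 ranked 524 among 40643 probes by p, and it did not pass the adjusted threshold. Without treated 1, with all treated arrays on slide 2, the log2 fold change was 1.34 (limma adjusted p = 0.0191). Slide and group cannot then be told apart, and 4235 of 41161 probes passed in that fit. With a single probe, no second reading of Ehd3 was at hand.

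Plvap encodes the protein that builds the diaphragms of fenestrae and caveolae. In the adult kidney it marks peritubular capillaries and is largely missing from glomerular endothelium. Its brighter probe read 5.65, 5.92 and 5.94 in treated samples, against 5.10, 5.51 and 5.57 in vehicle samples. Treated 1 was 0.08 above the highest vehicle sample, and vehicle 1 was low. The log2 fold change was 0.44 (SE 0.16, 95% interval 0.06 to 0.82, 1.36-fold, limma adjusted p = 0.205), and 0.25 within slide 1. The dimmer probe gave 0.40 (SE 0.18, limma adjusted p = 0.283), with treated values of -0.35, -0.03 and 0.15 against vehicle values of -0.78, -0.35 and -0.29, where treated 1 met vehicle 2.

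The pan-endothelial genes were then set against the regional ones array by array. Each gene was taken relative to its vehicle mean, and the 6 pan-endothelial genes were averaged. That average was 0.02, 0.15 and 0.17 in treated samples, against 0.06, 0.04 and -0.09 in vehicle samples, so treated 1 lay among the vehicle samples. The values of treated 2 and 3 came mainly from Flt1 (0.61 and 0.54) and from the brighter Tek probe (0.41 and 0.56). The other Tek probe had a fold change of opposite sign. Ehd3 relative to its vehicle mean was 0.78, 1.41 and 1.27 in treated samples, against 0.11, -0.28 and 0.17 in vehicle samples. Taken minus the pan-endothelial average, Ehd3 was 0.76, 1.25 and 1.103 in treated cortex, against 0.05, -0.31 and 0.26 in vehicle cortex. Ehd3 thus stayed apart from the pan-endothelial genes in all 3 treated samples. Plvap minus the pan-endothelial average was 0.23, 0.37 and 0.38 in treated cortex, against -0.35, 0.08 and 0.27 in vehicle cortex, and there treated 1 fell inside the vehicle range. The treated minus vehicle difference of the pan-endothelial average, less that of the mean of Ehd3 and Plvap, was -0.68, where the arrays of a group varied by an SD of 0.20. With Emcn averaged in as well, a choice made after seeing the data, it was -0.43. Since Ehd3 and Plvap were named with results of these arrays known, no test of this difference is given.

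**Figure D3:**
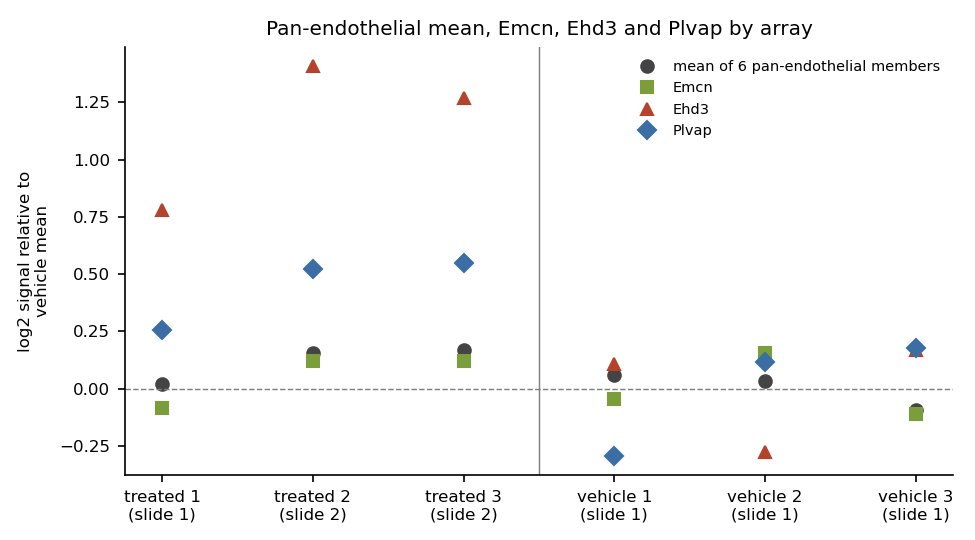
Signal on each array relative to the vehicle mean (log2, vertical axis) for the mean of the 6 pan-endothelial genes, Emcn, Ehd3 and Plvap, with treated samples left and vehicle samples right of the line. Ehd3 is 0.78 to 1.41 in treated samples, while the pan-endothelial mean and Emcn stay within 0.17 of the vehicle mean on every array.

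Other genes of the glomerular endothelium gave a mixed picture. Of 7 tested, Ehd3 included, 3 were higher and 1 was lower at an unadjusted p under 0.05, with a median of 0.27. Hecw2, a HECT ubiquitin ligase, read -3.73, -3.67 and -3.67 in treated cortex, against -4.35, -4.65 and -4.59 in vehicle cortex. The treated samples were nearly one value and lay clear of the vehicle. Hecw2 differed by 0.84 on the log2 scale (SE 0.10, 1.79-fold, limma adjusted p = 0.0635) and 0.80 within slide 1. Its other probe gave 0.75 (limma adjusted p = 0.221), and there the groups overlapped. On that probe treated values were -4.41, -3.49 and -3.68 against vehicle values of -4.37, -4.47 and -4.98. Treated 1 lay below vehicle 1, and the high samples, treated 2 and 3, were both on slide 2. With normexp background correction the brighter probe gave 0.49. Plat, tissue plasminogen activator, had a log2 fold change of 0.24 (limma adjusted p = 0.229) and 0.11 within slide 1. Tbx3, a T-box transcription factor, had -0.47 on its brighter probe (limma adjusted p = 0.232), -0.11 within slide 1, and 0.67 on its other probe (limma adjusted p = 0.203), so its direction depended on the probe. Plat and Tbx3 lost their unadjusted calls with slide as a block, fixed or random. Nostrin, Gata5 and Smad6 did not reach an unadjusted p of 0.05, and their groups overlapped. Nostrin had the lowest fold change of the list, at -0.51 (limma adjusted p = 0.427) and -1.14 within slide 1. Gata5 had 0.29 and Smad6 had 0.27, with -0.11 and 0.08 within slide 1.

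The peritubular list held 3 genes, 1 of them (Plvap) higher and 0 lower at an unadjusted p under 0.05, with a median of 0.44. Igfbp3, which binds insulin-like growth factors, read 6.23, 5.84 and 5.61 in treated samples against 4.67, 5.62 and 6.03 in vehicle samples, and the groups overlapped. Its log2 fold change was 0.45 with a limma adjusted p of 0.509, and 0.78 within slide 1, and vehicle 1 was the low sample, as it was for Plvap. Npr3, the natriuretic peptide clearance receptor, had 0.10 (limma adjusted p = 0.664).

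Among 24 further endothelial genes 18 were tested, with 1 higher, 3 lower and a median of 0.09. The 3 lower genes were Fli1, Cd93 and Erg. Fli1, an ETS factor, read -3.03, -3.24 and -3.33 in treated cortex, against -2.73, -2.72 and -2.76 in vehicle cortex, a log2 difference of -0.46 (SE 0.10, limma adjusted p = 0.115), -0.29 within slide 1 and -0.30 with normexp. Cd93, a C-type lectin of endothelial adhesion, had -0.34 (limma adjusted p = 0.17) and -0.30 within slide 1, with treated values of 1.44, 1.45 and 1.31 against vehicle values of 1.90, 1.69 and 1.62. Erg, the ETS factor most restricted to endothelium, had -0.25 on its brightest probe (limma adjusted p = 0.2) and -0.17 within slide 1, while its other probes gave -0.04 and -0.10. Sox7, a transcription factor of developing vessels, was the gene with higher values, at 0.34 (limma adjusted p = 0.239) and 0.18 within slide 1. None of these passed the adjusted test, and with slide as a fixed block Fli1 alone of the 4 kept its unadjusted call.

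Arterial genes numbered 9, with 1 higher (Sox17, an arterial transcription factor, log2 fold change 0.49, limma adjusted p = 0.217, 0.17 within slide 1) and 2 lower at an unadjusted p under 0.05. Efnb2, the arterial ephrin, read -2.64, -2.73 and -2.73 in treated cortex, against -2.34, -2.40 and -2.38 in vehicle cortex. Both groups were tight and apart, at a log2 difference of -0.32 (SE 0.07, limma adjusted p = 0.122), -0.26 within slide 1 and -0.17 with normexp. Dll4, a Notch ligand of arterial and sprouting cells, had -0.32 (limma adjusted p = 0.197) on its brighter probe, -0.19 within slide 1, and -0.88 (limma adjusted p = 0.139) on the other. Of 2 venous genes tested, Nr2f2, the factor that sets venous identity, was lower, at -0.32 (limma adjusted p = 0.186) and -0.15 within slide 1. Of 6 lymphatic genes, Mmrn1 was higher, at 1.01 (limma adjusted p = 0.219), 1.33 within slide 1 and 0.57 with normexp, with vehicle values spread between -4.81 and -3.33. Of these genes Efnb2 alone kept its unadjusted call with slide as a fixed block. Medians were 0.11 for the arterial list, -0.14 for the venous list and 0.08 for the lymphatic list.

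Genes of endothelial signalling held the lowest fold change among the endothelial lists. Of 22 tested, 0 were higher and 4 were lower at an unadjusted p under 0.05, with a median of 0.07. Apln, the peptide ligand apelin made by sprouting endothelium among other cells, read 0.38, -0.27 and -0.48 in treated cortex, against 1.42, 1.35 and 1.07 in vehicle cortex. Every treated sample was below every vehicle sample, at a log2 difference of -1.40 (SE 0.24, 0.378 times the vehicle signal, limma adjusted p = 0.0953), -0.91 within slide 1 and -1.36 on the other probe. Its receptor Aplnr read -2.54, -2.55 and -2.75 in treated cortex, against -1.71, -1.56 and -2.13 in vehicle cortex. Aplnr differed by -0.81 on the log2 scale (SE 0.16, limma adjusted p = 0.112) and -0.74 within slide 1. Ligand and receptor thus both had lower values without passing the adjusted test. Adgrl4, an adhesion receptor of sprouting endothelium, had -0.43 (SE 0.10, limma adjusted p = 0.126) and -0.35 within slide 1, and Dll4 is given above.

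**Figure D4:**
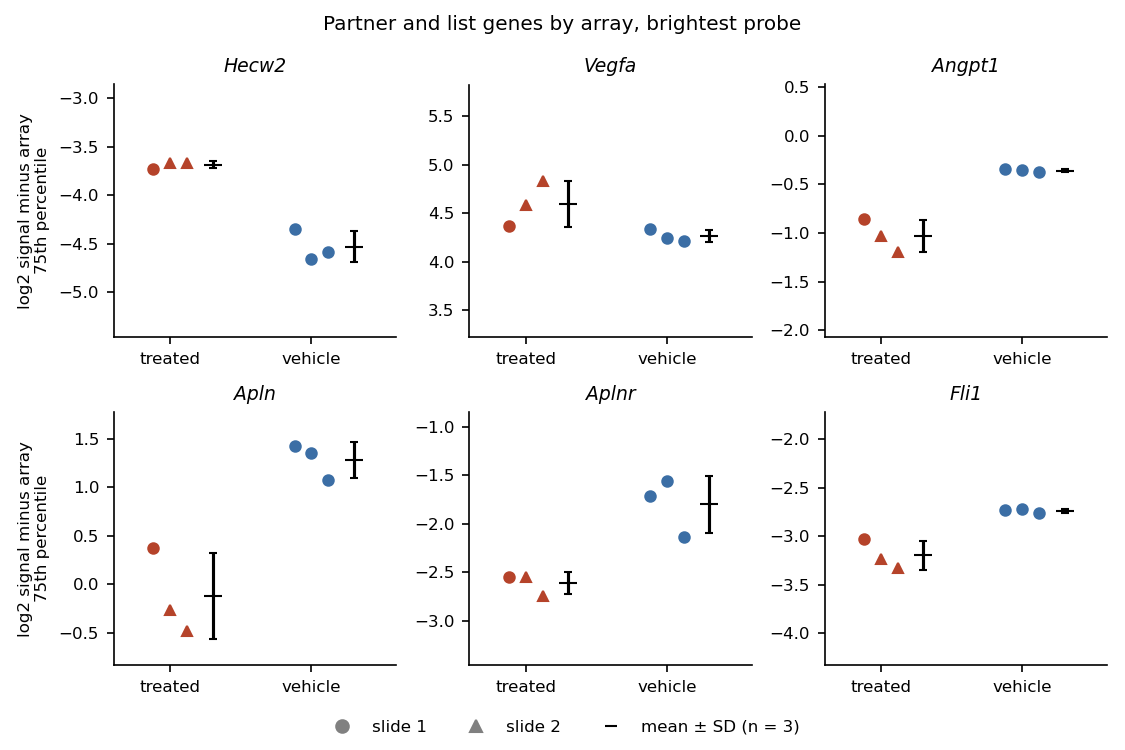
Signal by array (log2 signal minus the array's 75th percentile, vertical axis) of 6 partner genes of the endothelial members, treated left of vehicle, with circles for slide 1, triangles for slide 2 and bars for the mean ± SD of 3 samples. Treated values are above vehicle values for Hecw2 and Vegfa, with a narrow gap for Vegfa, and below them for Angpt1, Apln, Aplnr and Fli1.

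Genes of endothelial activation and coagulation had values in both directions. Of 9 tested, 3 were higher and 1 was lower at an unadjusted p under 0.05, with a median of -0.03. F3, tissue factor, had 0.85 (SE 0.19, limma adjusted p = 0.127) and 0.50 within slide 1, where its unadjusted call was lost, with treated values of 4.59, 5.32 and 4.88 against vehicle values of 4.04, 4.003 and 4.20. All treated samples of F3 were above the vehicle, and renal cells other than endothelium express it as well. Plat, given above, was also among the higher genes. Ccl2, the monocyte chemokine, read -2.44, -2.05 and -1.70 in treated cortex, against -0.98, -0.65 and -0.41 in vehicle cortex, a log2 difference of -1.39 (SE 0.23, limma adjusted p = 0.0952) and -1.76 within slide 1. Sele and Selp, the selectins of activated endothelium, were on the array and too dim to be tested.

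Markers of the cells around the vessels, and of tissue that a cortex sample could carry along, were read in the same way, and their part in the results above was not tested. Of 10 podocyte genes 1 was higher and 1 was lower, with a median of 0.17. The summed podocyte signal, in multiples of the array's 75th percentile, was 53.3 to 75.2 in treated samples and 53.0 to 54.0 in vehicle samples. Of 12 mural and mesangial genes 3 were higher (Tagln, log2 fold change 1.04, Myh11, 0.47, and Des, 0.36) and 0 were lower, with a median of 0.20, although 1 of the other Myh11 probes gave -0.22. Within slide 1 Tagln had 0.83, Myh11 0.26 and Des 0.19, and Tagln alone of these kept its unadjusted call. Their summed signal was 53.5 to 61.3 in treated samples and 48.3 to 59.9 in vehicle samples. Of 8 proximal tubule genes 1 was higher (Slc5a12, 0.43, and 0.24 within slide 1) and 1 was lower (Lrp2, -0.33, and -0.36 within slide 1), with a median of 0.02 and summed signals of 1245 to 1652 in treated and 1440 to 1498 in vehicle samples.

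Of 6 vasa recta and medullary genes 0 were higher or lower, with a median of 0.23. Their sum was 625.3 to 665.1 in treated samples and 477.6 to 610.8 in vehicle samples, and the loop genes Umod and Slc12a1 both had 0.34 (0.47 and 0.53 within slide 1). This sum follows its brightest probes, Umod, Aqp1 and Aqp2, while the dim Slc14a1 and Slc14a2 add little, so it does not describe vasa recta. Of 7 macrophage genes 1 was higher (Mrc1, 0.75) and 2 were lower (Adgre1, -0.85, and Aif1, -0.56), with a median of -0.23 and sums of 22.1 to 26.3 in treated and 23.0 to 31.9 in vehicle samples. Within slide 1 Mrc1 had 1.15, Adgre1 -0.42 and Aif1 -0.19, and both lower calls were lost. No platelet gene of 3 (median 0.36, sums of 1.90 to 2.20 in treated and 1.51 to 1.87 in vehicle samples) and no erythroid gene of 4 (median 0.16, sums of 425.0 to 584.3 in treated and 479.6 to 512.4 in vehicle samples) reached an unadjusted p of 0.05 on its brightest probe, though 1 of the other Gp1bb probes, for a platelet glycoprotein, did (0.61, limma adjusted p = 0.191). Of 9 liver genes 1 was higher (Tf, 1.11, and 1.01 within slide 1), with a median of 0.55. Tf lost its unadjusted call with slide as a block, fixed or random. Within slide 1 Alb, Ttr, Fgb, Serpina1 and Apoc3 were below the vehicle mean, and Apoa1, Apoa2 and Fga were above it. Alb ran from -0.28 to 3.49 among the vehicle samples alone. Liver sums were 38.0 to 88.9 in treated and 21.5 to 51.3 in vehicle samples. Of 5 adipocyte genes 2 were higher, with a median of 0.46. These were Cidec (1.86, and 2.20 within slide 1) and Lpl (0.42, and 0.37 within slide 1). Both lost their unadjusted call with slide as a fixed block and kept it with slide as a random block. Adipoq had -0.08, and -0.56 within slide 1, and for Adipoq, Fabp4 and Cfd the groups overlapped. Adipocyte sums were 3.10 to 3.47 in treated and 1.87 to 2.59 in vehicle samples.

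**Figure D5:**
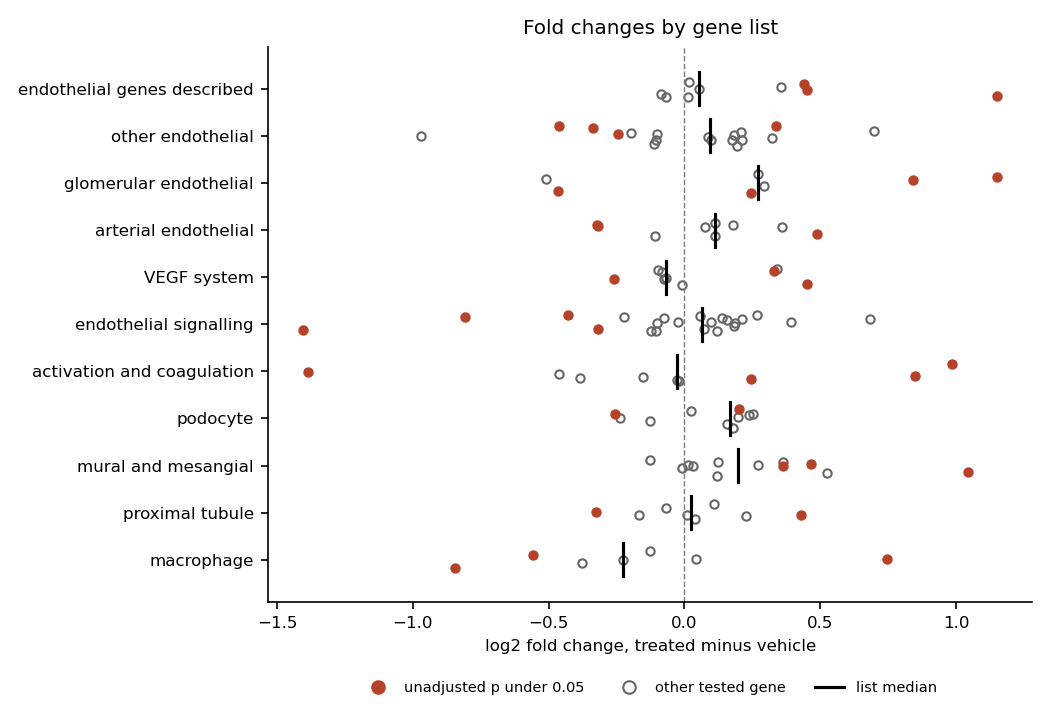
Log2 fold change, treated minus vehicle, of each tested gene (brightest probe) in 11 gene lists, with filled points for an unadjusted limma p under 0.05 and a bar at the median of the list. List medians lie between -0.23 and 0.27, and the endothelial genes described here have a median of 0.05, with Ehd3 at 1.15 as their highest value.

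Last, genes were ranked by how closely they followed the mean pattern of the 9 endothelial genes over the 6 arrays. That mean pattern, with each gene centred on its own mean, was -0.01, 0.20 and 0.20 in treated samples, against -0.12, -0.11 and -0.17 in vehicle samples, so treated 1, on slide 1, lay between the slide 2 samples and the vehicle. The genes were not scaled, so Ehd3 (log2 fold change 1.15) weighed most, and members with estimates near 0 weighed little. The median log2 fold change of the 9 genes was 0.05. Of 11673 candidate genes 13 had a Pearson r over 0.99. The closest 5 were Prdx5, a peroxiredoxin (r = 0.999), Ing2, a chromatin reader (0.997), Pfkfb4, a regulator of glycolysis (0.997), Acaa1b, a peroxisomal thiolase (0.996), and Lrrc74a (0.995). With 6 arrays that share slide and group, such values describe likeness only. Acaa1b read 7.30, 7.85 and 7.90 in treated cortex, against 7.03, 7.13 and 6.98 in vehicle cortex.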

How the data were processed

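Per the labels' protocols, RNA was prepared with an miRNeasy kit and labelled with Cy3. Per the file headers, the authors extracted spot intensity with Agilent Feature Extraction 10.7.1.1, which wrote a background-subtracted processed signal; the submitters' processing notes name version 10.7. The authors also deposited a series table of intensity values. Its columns matched the scanner signal scaled to the 75th percentile of the array (lowest log2 correlation 1.0 after rounding), with column medians of 0.109, 0.105 and 0.105 for treated 1 to 3 and 0.110, 0.108 and 0.109 for vehicle 1 to 3; it was used as an alternative.

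Here log2 was taken of the processed signal of 61537 non-control probes and the 75th percentile of each array was subtracted. Saturation was flagged on 0 probes, and 11 with an outlier flag were left out. Tested probes (40643) were those detected, that is well above background, in every array of either group. Accessions without versions were matched to the RefSeq gene table of GRCr8: 28206 probes had 1 symbol, 33331 none and 0 several. A gene was represented by its brightest probe. The group difference was fitted with lmFit and eBayes of limma 3.58.1 under R 4.3.3 as a two-sided test, and p-values were adjusted by Benjamini-Hochberg over all tested probes. Intervals are at 95%. The number of arrays, 3 a group, limits the precision. The fit was tested on simulated data with known changes.

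The members and the gene lists were chosen with earlier results of these data known. Named genes are all members, up to 4 genes of each other list with an unadjusted p under 0.05 in order of absolute change (or the 2 with the largest change where none had), the tested VEGF and angiopoietin genes, and the 5 genes most like the members' mean pattern. Igfbp3, Npr3, Nostrin, Gata5, Smad6 and the further liver and adipocyte genes were named in addition, to complete their lists, after their values were seen. Some genes that this rule names are not reported here. Alternatives covered background correction (normexp with offset 50 on the median spot signal, the mean being not used here), normalization, the filter and floor on dim probes, slide, replicate number, variance model, source of values, probe choice and each array left out. The offset by itself draws fold changes of dim probes towards 0, so smaller normexp values of dim genes are not a result of background correction alone.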

Additional observations from a re-analysis of the deposited data

How the results depend on the processing

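Signs and significance were recomputed under 18 alternatives. The number of probes past the adjusted threshold, 3 as reported, depended on the setting and the cause was not tested: it was 137 with normexp, 17 with median centring, 1 with no filter on dim probes, 0 when a probe had to be detected on every array, 0 with dim values at the floor, 1 with slide as a fixed block, 0 with the replicate block and 156 with trend and robust variances. With slide as a fixed block, 26 of the 42 named genes with an unadjusted p under 0.05 lost it, among them Flt1 and Plvap. At an unadjusted p under 0.05, limma as reported counted 8377 probes, and no other tool was run. Leaving out 1 array gave 1 to 4235 probes. The 4235 (1467 higher, 2768 lower) came without treated 1, where all treated arrays were on slide 2 and group and slide cannot be told apart, and 14 came without vehicle 1. In that fit without treated 1, 4235 of 41161 probes of the whole array passed. The named genes were picked in part by their p on these same arrays. Of these 61 genes 18 passed, a count that cannot be set against the share of the array. Among them were Ehd3 (1.34, limma adjusted p = 0.0191) and Flt1 (0.58, limma adjusted p = 0.0245). The others were Fli1, Hecw2, Tbx3, Efnb2, Nr2f2, Angpt1, Apln, Ccl2, F3, Tagln, Adgre1, Aif1, Ing2, Pfkfb4, Acaa1b and Lrrc74a. No member passed in any other alternative, and among the other named genes Ccl2 passed with normexp.

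The median log2 fold change of the 9 members, 0.053 as reported, was 0.118 with normexp and 0.130 with the mean of a gene's probes, and 0.029 to 0.132 with 1 array left out. The pan-endothelial minus regional difference, -0.683 as reported, taken from Ehd3 and Plvap alone, ran between -0.815 without vehicle 3 and -0.497 with slide as a fixed block over the 18 alternatives, and was -0.683 with the replicate block. With Emcn among the regional genes, added after seeing the data, it was -0.435. Same-numbered samples did not deviate together (correlations of -0.211, 0.014 and -0.159), so the numbers were not taken as pairs. Of 1097 values of named genes under the alternatives, 1054 kept their sign and their side of the threshold, 19 newly passed and 24 in 9 genes changed sign, all but Tbx3 and Angpt4 from estimates within 0.1 of 0. No named gene passed as reported, so a kept side means only that it still did not pass. The count of kept values is therefore no measure of how stable the differences were. Slide as a fixed block turned Pecam1 to -0.045, Emcn to -0.083, Pgf to 0.265, Flt4 to 0.0038, Vegfc to 0.099 and Angpt4 to -0.120. Slide as a random block turned Pecam1 to -0.011, Emcn to -0.0069 and Pgf to 0.112. Normexp turned Tie1 to -0.0089, quantile normalization turned Pgf to 0.0092, median centring turned Pgf to 0.030, and the mean of probes turned Tbx3 to 0.101. With 1 array left out, Pgf ran from -0.144 to 0.114, Tie1 from -0.039 to 0.114, Angpt4 from -0.287 to 0.481, Pecam1 from -0.049 to 0.049, Emcn from -0.0031 to 0.132 and Angpt2 from -0.0093 to 0.178. The sign of these genes cannot be read at this number of arrays.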
